A study of Mus musculus with 12 samples.

Results

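Potassium channel genes were described in the gastrocnemius, the large calf muscle, of mice. Members were all genes whose symbol in the array annotation begins with Kcn followed by letters and a number, on probe sets that name 1 gene. This gave 84 genes of the 18194 measured. For 46 of them the annotation lists more than 1 probe set (167 probe sets for the 84 genes), and the 1 with the highest mean over the 12 arrays was used. Of the 84, 81 encode channel subunits and 3 are non-coding RNAs at channel loci. Wild-type and knock-out mice of mixed C57Bl/6N/6J/129 background were compared at 10 weeks (young) and at 24 months (old), with 3 arrays in each of 4 groups: WT_young, KO_young, WT_old and KO_old. The knock-out is labelled as a muscle-specific loss of PGC-1alpha, the coactivator encoded by Ppargc1a, made with a cre driven by myogenin. Myogenin is a gene of differentiating muscle cells, so vessel, nerve, fat and immune cells of the tissue keep the gene. The labels name neither the control alleles nor any treatment, and they do not say that arrays came from separate animals. The p-values thus rest on how far these samples spread, and part of that spread may be technical. In whole muscle, fewer cells of a type and less RNA per cell cannot be told apart.

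Potassium channels let potassium leave a cell and so return its membrane to rest after an action potential. In a muscle fibre they act together with the chloride channel that holds the resting potential. Voltage-gated channels are built from alpha subunits and may carry silent alpha subunits or auxiliary proteins that change their opening. Inward rectifiers and tandem-pore channels pass current near the resting potential, some inward rectifiers are closed by ATP, and calcium-activated channels open as calcium in the cell rises.

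Array medians lay between log2 6.19 and 6.25, and arrays of 1 group correlated at 0.988 to 0.997 across genes. The deposited values are log2 signals, so a difference of 1 is a doubling of signal. On none of its 5 probe sets was Ppargc1a lower in the arrays labelled knock-out: knock-out minus wild-type was 0.42 to 0.58 in young muscle and 0.29 to 0.49 in old muscle (limma, smallest adjusted p = 0.398 and 0.265 over all probe sets). Which exons were deleted is not in the labels, so probe sets lying elsewhere in the gene would check nothing about the genotype. All 6 measured markers of skeletal muscle were above the median signal, with a mean of 14.4 to 14.6 on every array. KO_old 1 lay apart from its replicates, at 42.6 on the first principal component beside 19.3 and 15.7. The 5′ minus 3′ signal of Actb moved with age, with means of -0.29 in WT_young, -0.20 in KO_young, -0.13 in WT_old and -0.01 in KO_old, and Gapdh moved the same way, at -0.19, -0.17, -0.03 and -0.02. The 18S rRNA signal was 13.2 to 14.2 on young and 11.7 to 12.8 on old arrays, with no overlap. Within old muscle Actb was also higher in the knock-out, at -0.109 to 0.051 beside -0.140 to -0.112 in the wild-type, with no overlap. In young muscle the genotypes overlapped on Actb, and on Gapdh they overlapped at both ages. The part of these measures in the genotype and age differences below was not tested.

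Of the 84 genes, 32 (38.1%) had a group mean above 6.22, the median of all probe sets, beside 64.6% of all 18194 genes. These 32 were 11 of 22 voltage-gated alpha subunits, 3 of 9 silent subunits, 5 of 15 auxiliary subunits, 5 of 15 inward rectifiers, 3 of 12 tandem-pore channels, 4 of 8 calcium- or sodium-activated channels and 1 of 3 non-coding RNAs. In 27 of them all 4 group means lay above it, and in 5 (Kcnd3, Kcng4, Kcnip1, Kcnk5 and Kcnn2) some did. The other 52 read between 3.56 and 6.50 on single arrays, and the median span between their highest and lowest group mean was 0.24. Kcnu1 had the widest span among the 52, at 1.11, with no call in any comparison. With probe sets averaged per gene, 23 of the 84 lay above the median.

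In limma's test over all genes (adjusted p under 0.05), 11 of the 84 genes passed in at least 1 comparison. The silent subunit gene Kcng4 was lower in knock-out than in wild-type muscle at both ages and lower in old than in young muscle of both genotypes. The auxiliary subunit gene Kcnab1 was higher in old muscle of both genotypes. In young muscle 1 member passed, Kcng4, which was lower (1.19% of members, background 0.192% of all genes, 0.0385% higher and 0.154% lower). In old muscle 2 members passed in the genotype comparison, Kcng4 and Kcnn2, both lower (2.38%, background 1.32%, 0.473% higher and 0.852% lower). Between old and young wild-type muscle 3 passed, Kcnab1 and Kcnq5 higher and Kcng4 lower (3.57%, background 3.62%, 1.65% higher and 1.97% lower). Between old and young knock-out muscle 9 passed, 5 higher and 4 lower (10.7%, background 10.3%, 4.85% higher and 5.41% lower), so both age shares lie near the background. No member passed the test of a difference between the 2 genotype effects (0 of 84, background 0%, and 0 also in each other limma setting run). An unadjusted limma p under 0.05 was seen for 8 of 84 members, beside 5.45% of all genes. With 3 arrays per group, not passing does not show that the 2 effects are equal. The 4 comparisons share arrays, so their results for 1 gene are not independent of each other.

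**Figure D1:**
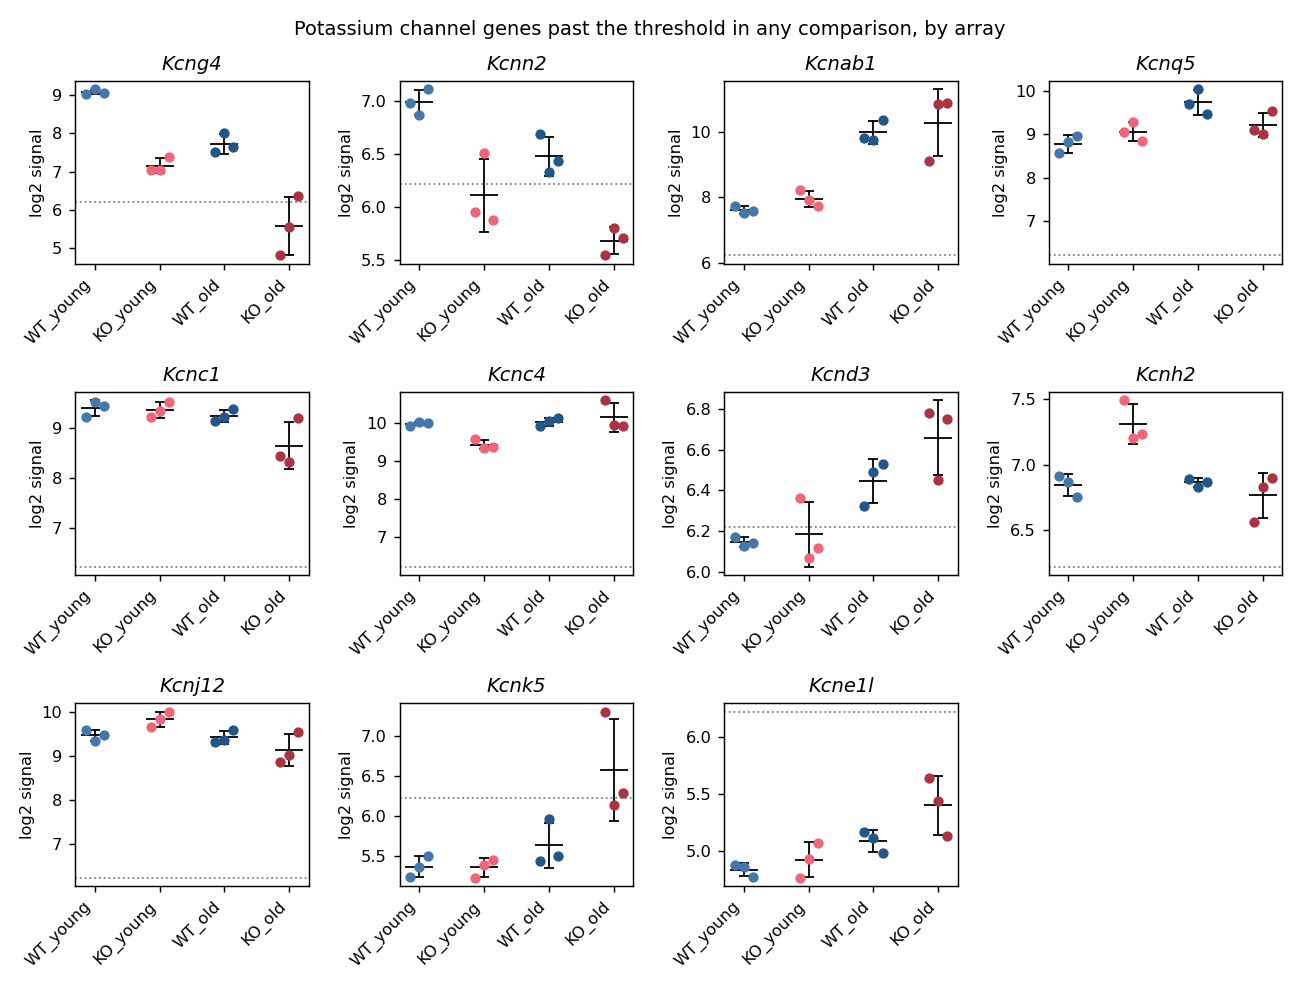
Log2 signal (y axis) of the 11 genes that passed in at least 1 comparison, by group (x axis); points are the 3 arrays, the bar and whiskers are mean ± SD, and the dotted line is the median of all probe sets, 6.22. Kcng4 falls from about 9.1 in WT_young to 4.84 to 6.37 in KO_old, and Kcnab1 lies above 9.1 on every old array and under 8.3 on every young array.

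Kcng4 encodes a silent alpha subunit that forms no channel on its own and changes the gating of the channels it joins. It read 9.03, 9.15 and 9.07 in WT_young, 7.05, 7.06 and 7.38 in KO_young, 7.52, 8.02 and 7.64 in WT_old, and 4.84, 5.55 and 6.37 in KO_old. The groups did not overlap in any of the 4 comparisons, and the 4 groups stood in the order WT_young, WT_old, KO_young, KO_old with none of their arrays overlapping. Knock-out minus wild-type was -1.92 ± 0.28 (SE) in young muscle (3.79-fold lower, limma adjusted p = 0.0232, n = 3 per group). In old muscle it was -2.14 ± 0.28 (at least 4.40-fold lower, adjusted p = 0.00775), a lower bound since the KO_old mean, 5.59, lies under the median signal where background compresses differences. Old minus young was -1.36 ± 0.28 in wild-type muscle (2.57-fold lower, adjusted p = 0.0232) and -1.58 ± 0.28 in knock-out muscle (at least 2.98-fold lower, adjusted p = 0.00561). The genotype effects at the 2 ages were -0.21 apart, and this did not pass (adjusted p = 0.955).

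The Kcng4 calls in old knock-out muscle were kept without any single array. The call in young muscle ended without WT_young 2 (adjusted p = 0.141), WT_young 3 (0.130), KO_young 1 (0.111), KO_young 2 (0.131), KO_young 3 (0.0590) or WT_old 3 (0.0510), with differences between -2.03 and -1.87 over the 12 fits and adjusted p from 0.000228 to 0.141 over the settings run. The age call in wild-type muscle ended without WT_young 1, 2 or 3 (0.0616, 0.0756 and 0.0860) or WT_old 1 or 3 (0.0775 and 0.0828), with -1.51 to -1.26 over the 12 fits (0.000859 to 0.0860 over the settings run). The fits that ended the young genotype call had 1 to 13 genes passing over the array, beside 35 with all 12 arrays. A fit on the old arrays alone ended the genotype call in old muscle (0.110, range over settings 0.000300 to 0.110). In that fit 0 of all genes passed. Kcng4 has 1 probe set, so no other probe set bears on these values. In KO_old its order over the arrays was the reverse of that of adipocyte markers, whose list means were 11.2, 10.6 and 8.48 there, 8.34 to 9.18 in WT_old, 9.23 to 9.82 in WT_young and 8.85 to 9.69 in KO_young. Without KO_old 1 both calls that include KO_old were kept.

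Because Kcng4 moved down and Kcnab1 up with age, the 250 bases before their RefSeq start sites are shown from the GRCm38.p6 tables, on the gene's strand and 5′ to 3′. Kcng4 lies at chr8:119635681-119635930, minus strand. Kcnab1 has 3 start sites in the table, at chr3:64948962-64949211, chr3:65108764-65109013 and chr3:65187853-65188102, plus strand, and the arrays do not tell which is used. Capitals mark CAGCTG, the E-box bound by myogenic factors.
Kcng4: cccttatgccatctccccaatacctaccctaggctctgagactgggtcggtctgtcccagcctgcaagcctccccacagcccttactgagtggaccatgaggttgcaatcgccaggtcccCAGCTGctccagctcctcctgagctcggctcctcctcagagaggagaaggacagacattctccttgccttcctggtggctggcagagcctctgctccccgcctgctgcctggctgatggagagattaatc
Kcnab1 start 1: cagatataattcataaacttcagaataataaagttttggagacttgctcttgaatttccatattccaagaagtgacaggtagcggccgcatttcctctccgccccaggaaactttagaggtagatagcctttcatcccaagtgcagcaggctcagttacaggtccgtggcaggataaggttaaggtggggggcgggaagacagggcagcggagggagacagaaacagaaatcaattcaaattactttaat
Kcnab1 start 2: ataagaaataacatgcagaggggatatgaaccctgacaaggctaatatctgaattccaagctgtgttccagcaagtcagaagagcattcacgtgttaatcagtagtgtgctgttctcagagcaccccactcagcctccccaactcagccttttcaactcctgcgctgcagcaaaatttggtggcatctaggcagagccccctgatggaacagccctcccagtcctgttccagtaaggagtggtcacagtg
Kcnab1 start 3: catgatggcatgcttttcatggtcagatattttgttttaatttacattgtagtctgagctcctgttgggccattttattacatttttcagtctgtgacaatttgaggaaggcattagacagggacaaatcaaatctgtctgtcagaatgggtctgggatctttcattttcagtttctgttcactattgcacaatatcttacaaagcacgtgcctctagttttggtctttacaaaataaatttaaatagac
The windows were searched on both strands for AAGGTCA, the site of the estrogen-related receptors that PGC-1alpha works with, for CAGCTG, which reads the same on both strands, and for TATAAA, each counted whether or not it overlaps another. AAGGTCA stands in none of the 4 windows, beside 4.08% of all 32851 promoter windows of this length. CAGCTG stands once before Kcng4, 130 bases upstream of the start, and not before Kcnab1 (13.0% of all windows hold it). Among the other genes that passed and were searched, it also stands before Kcnd3 (232 bases upstream) and Kcne1l (117 bases), both higher with age in knock-out muscle. Kcnn2, which passed too, was not among the genes searched. TATAAA stands in none of the 4 (12.4% of all windows). The G and C content was 60.4% before Kcng4 and 45.2%, 50.0% and 35.6% before the 3 Kcnab1 starts, where the median of all windows is 52.4%. A match is a description of letters, and these windows say nothing of a factor's binding.

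Of the other silent subunit genes with signal, Kcnf1 read 6.28, 6.34 and 6.87 in WT_young, 8.20, 6.98 and 6.67 in KO_young, 7.23, 7.59 and 8.07 in WT_old and 8.12, 7.36 and 7.58 in KO_old. Each WT_old array was above each WT_young array, and the young groups overlapped. Old minus young was 1.13 ± 0.35 in wild-type muscle and did not pass (limma adjusted p = 0.110), although it passed without KO_young 1 (0.0351) and with only the wild-type arrays (0.0396), over a range of 0.0351 to 0.326 in the settings run. Knock-out minus wild-type was 0.79 ± 0.35 in young muscle (adjusted p = 0.428, 95% interval 0.02 to 1.55). Its genotype effects at the 2 ages were -0.73 ± 0.50 apart (adjusted p = 0.871).

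Kcnn2, a small-conductance channel opened by calcium, was the 1 calcium-activated member that passed. It read 6.98, 6.87 and 7.11 in WT_young, 5.96, 6.51 and 5.87 in KO_young, 6.69, 6.33 and 6.43 in WT_old and 5.54, 5.80 and 5.71 in KO_old. Every knock-out array was below every wild-type array of its age, and several knock-out arrays lay under the median signal. The difference was -0.80 ± 0.16 in old muscle (at least 1.74-fold lower, limma adjusted p = 0.0325, n = 3 per group). In young muscle it was -0.88 ± 0.16 and did not pass (adjusted p = 0.0519). That young difference passed in 7 of 21 other settings, among them without KO_young 2 (0.0227) or KO_old 1 (0.0343) and with trended and robust variances (0.0268), over a range of 0.00512 to 0.220. The old call ended without WT_young 3 (0.0542), WT_old 1, 2 or 3 (0.0945, 0.0730 and 0.117) or KO_old 1 or 2 (0.0843 and 0.0678), with array weights (0.0645) and with only the old arrays (0.105), over a range of 0.0188 to 0.117. With only the old arrays 0 of all genes passed. Old minus young in wild-type muscle was -0.51 ± 0.16 without passing (adjusted p = 0.109), and it passed without KO_young 2 (0.0419, range 0.0170 to 0.311).

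The large-conductance channel gene Kcnma1 stayed between 9.76 and 10.12 on the 12 arrays, with differences from -0.12 to 0.05 and no call. Kcnn4, the intermediate-conductance channel of blood cells and vessels, lay between 6.24 and 6.76. Kcnn3, which denervated muscle is known to express, stayed between 5.67 and 6.07, under the median signal on every array. None of the 3 passed in any comparison.

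Kcnab1 encodes a beta subunit that binds voltage-gated alpha subunits and can speed their inactivation. It read 7.75, 7.52 and 7.57 in WT_young, 8.23, 7.92 and 7.73 in KO_young, 9.83, 9.76 and 10.38 in WT_old and 9.11, 10.87 and 10.90 in KO_old. Every old array was above every young array, and KO_old 1 was the lowest old array. Old minus young was 2.38 ± 0.38 in wild-type muscle (5.20-fold higher, limma adjusted p = 0.00574, n = 3 per group) and 2.33 ± 0.38 in knock-out muscle (5.03-fold higher, adjusted p = 0.00329). Its other probe set gave 1.81 ± 0.44 and 2.13 ± 0.44. Both Kcnab1 calls held in each of the 21 other settings run, with adjusted p from 7.03e-05 to 0.0316 in wild-type muscle and 4.09e-05 to 0.0360 in knock-out muscle. Without KO_old 1 the knock-out difference was 2.92. Between genotypes Kcnab1 differed by 0.35 in young and 0.30 in old muscle, with adjusted p = 0.747 and 0.688.

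**Figure D2:**
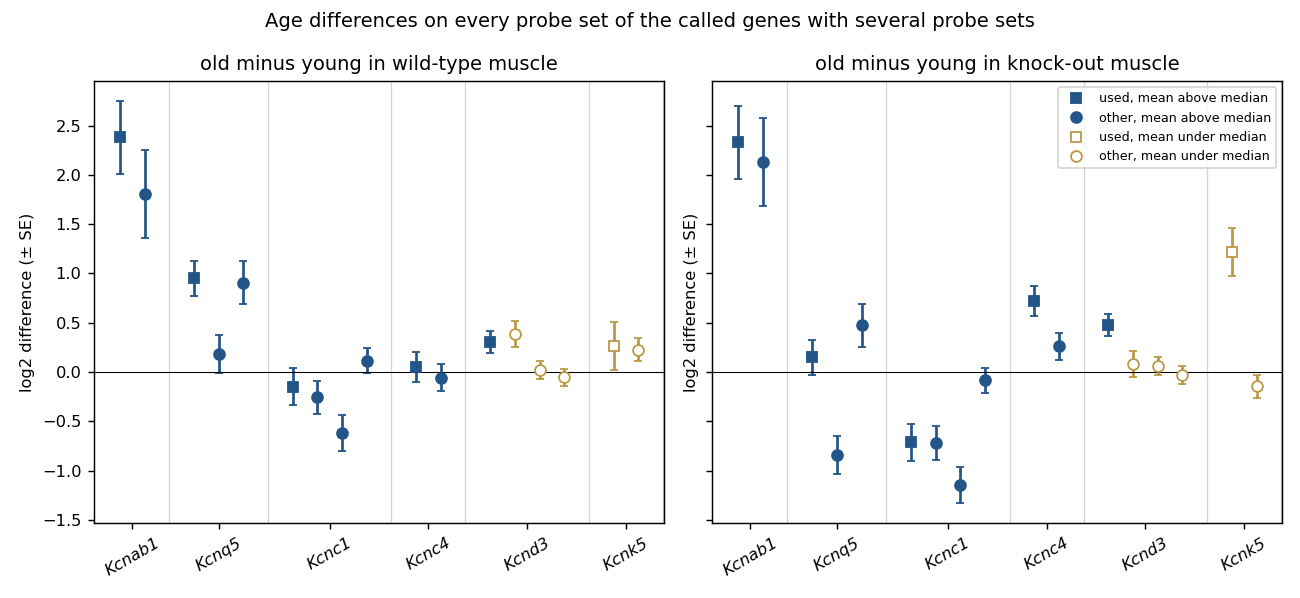
Old minus young difference (y axis, log2, ± SE from limma) on every probe set of the 6 genes that passed in any comparison and have several probe sets (x axis), in wild-type (left) and knock-out muscle (right); squares are the probe sets used, circles the others, and open symbols have a mean under the median signal. Both Kcnab1 probe sets lie above 1.8 in both panels, while 1 Kcnq5 probe set lies at -0.84 in the right panel where the others lie above 0.

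Other auxiliary subunits moved less. Kcne1l, a single-span subunit gene of the KCNE family, read 4.77, 4.93 and 5.07 in KO_young and 5.64, 5.44 and 5.13 in KO_old. The groups did not overlap and the difference was 0.48 ± 0.13 (limma adjusted p = 0.0316), but every array lay under the median signal, so no fold is given. Its order in KO_old was that of the adipocyte markers (11.2, 10.6 and 8.48), whose part was not tested. The call ended without KO_young 1 or 2 (0.104 and 0.0870) or KO_old 1 or 2 (0.0945 and 0.0726) and with only the knock-out arrays (0.119), over a range of 0.00687 to 0.119. Kcnip3, a calcium sensor that binds channels and also DNA, was -0.44 ± 0.16 in the old genotype comparison (adjusted p = 0.159). Kcnmb4, a beta subunit of the large-conductance channel, was -0.25 ± 0.11 in the young one (adjusted p = 0.424). Kcnmb1, the smooth muscle beta subunit of that channel, lay between 4.94 and 5.49, under the median signal.

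Among voltage-gated alpha subunits, Kcnq5, of the slowly opening M-type channels, was higher in old wild-type muscle. It read 8.56, 8.82 and 8.95 in WT_young, 9.69, 10.03 and 9.46 in WT_old, 9.06, 9.28 and 8.84 in KO_young and 9.09, 9.01 and 9.52 in KO_old. The wild-type ages did not overlap, and the knock-out ages did. Old minus young was 0.95 ± 0.18 in wild-type muscle (1.93-fold, limma adjusted p = 0.0142, n = 3 per group) and 0.15 in knock-out muscle (adjusted p = 0.677). The genotype effects were -0.80 ± 0.25 apart (unadjusted p = 0.00756, adjusted p = 0.871), so the ages are not shown to act differently in the 2 genotypes. The 2 other probe sets gave 0.18 and 0.90 in wild-type muscle but -0.84 and 0.47 in knock-out muscle, and averaging the 3 ended the Kcnq5 call (0.68, adjusted p = 0.0763). It also ended without WT_young 1 (0.0533) or WT_old 2 (0.0640), over a range of 0.00401 to 0.0763. In old muscle knock-out minus wild-type was -0.52 ± 0.18 for Kcnq5 (adjusted p = 0.147).

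Kcnc1, a fast delayed rectifier, and Kcnc4, whose channel is of the quickly inactivating A type, passed in opposite directions between old and young knock-out muscle. Kcnc1 read 9.22, 9.33 and 9.52 in KO_young and 8.43, 8.31 and 9.19 in KO_old, with no overlap but with KO_old 3 close to the young arrays. It fell by 0.71 ± 0.19 (1.64-fold lower, limma adjusted p = 0.0340), and its other probe sets gave -0.72, -1.14 and -0.08. Adipocyte markers (5 of 5 above the median signal) had list means of 11.2, 10.6 and 8.48 in KO_old 1, 2 and 3, so Kcnc1 was lower on the 2 arrays where they were high, and their part was not tested. The Kcnc1 call ended without WT_young 3 (0.0506), KO_young 1, 2 or 3 (0.0529, 0.0882 and 0.125) or KO_old 1 or 2 (0.111 and 0.101), and with only the knock-out arrays (0.119), over a range of 0.00135 to 0.125. In old muscle Kcnc1 was -0.60 ± 0.19 in knock-out against wild-type without passing (adjusted p = 0.128), and it passed without KO_old 3 (-0.87, adjusted p = 0.00527, range 0.00527 to 0.319).

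Kcnc4 read 9.92, 10.01 and 9.99 in WT_young, 9.57, 9.34 and 9.36 in KO_young, 9.91, 10.04 and 10.12 in WT_old and 10.58, 9.94 and 9.90 in KO_old. The KO_young arrays were below all others. Old minus young in knock-out muscle was 0.72 ± 0.15 (1.64-fold higher, limma adjusted p = 0.0126), and the other probe set gave 0.26. The call ended without KO_young 2 or 3 (0.0522 and 0.0540) and with only the knock-out arrays (0.0769), over a range of 0.00717 to 0.0769. Knock-out minus wild-type in young muscle was -0.55 ± 0.15 without passing (adjusted p = 0.214), and it passed without KO_old 1 (0.0204) and with array weights (0.00599), over a range of 0.00599 to 0.588. The genotype effects were 0.67 ± 0.22 apart (unadjusted p = 0.00935, adjusted p = 0.871).

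Kcnh2, whose channel shapes repolarisation in the heart, read 6.92, 6.87 and 6.75 in WT_young, 7.49, 7.21 and 7.24 in KO_young, 6.89, 6.83 and 6.87 in WT_old and 6.57, 6.83 and 6.90 in KO_old. Its KO_young arrays were above all others. It fell by 0.55 ± 0.11 between young and old knock-out muscle (1.46-fold lower, limma adjusted p = 0.00815), a call kept without any single array and ended with only the knock-out arrays (0.0603, range 0.00596 to 0.0603). Knock-out minus wild-type in young muscle was 0.47 ± 0.11 and did not pass (adjusted p = 0.122), but passed without KO_old 1 (0.0417) and with array weights (0.00502), over a range of 0.00502 to 0.393. Its genotype effects were -0.57 ± 0.15 apart (unadjusted p = 0.00261, adjusted p = 0.871).

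Kcnd3, of the transient A-type channels, read 6.36, 6.07 and 6.12 in KO_young and 6.78, 6.45 and 6.75 in KO_old. The ages did not overlap, and the difference was 0.48 ± 0.11 (at least 1.39-fold, limma adjusted p = 0.0186) on the brightest of its 4 probe sets. The other 3 gave 0.08, 0.06 and -0.03, all under the median signal, and averaging them ended the call (0.15, adjusted p = 0.237). It also ended without KO_young 2 or 3 (0.0788 and 0.0744) or KO_old 1 (0.0581) and with only the knock-out arrays (0.0872), over a range of 0.00938 to 0.237. In wild-type muscle old minus young was 0.30 ± 0.11 for Kcnd3 (adjusted p = 0.179).

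The other voltage-gated genes gave no call. Kcna7, a channel gene of muscle, read between 11.06 and 11.81 on the 12 arrays, with KO_old 1 the lowest, and differed by -0.07 and -0.30 between genotypes and by -0.08 and -0.31 between ages. The 95% intervals of the last and second differences, -0.60 to -0.02 and -0.59 to -0.01, lay below 0 without an adjusted p under 0.05 (0.168 and 0.245). Kcna1 stayed between 6.84 and 7.59. Kcna5, a delayed rectifier also of vessel walls, was -0.63 ± 0.24 in old against young wild-type muscle (adjusted p = 0.187). Kcnh1 was 0.29 ± 0.14 in that comparison (adjusted p = 0.325) and -0.34 ± 0.14 in old knock-out against old wild-type muscle (adjusted p = 0.213). Kcna3, of lymphocytes, lay between 4.64 and 5.45, under the median signal.

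**Figure D3:**
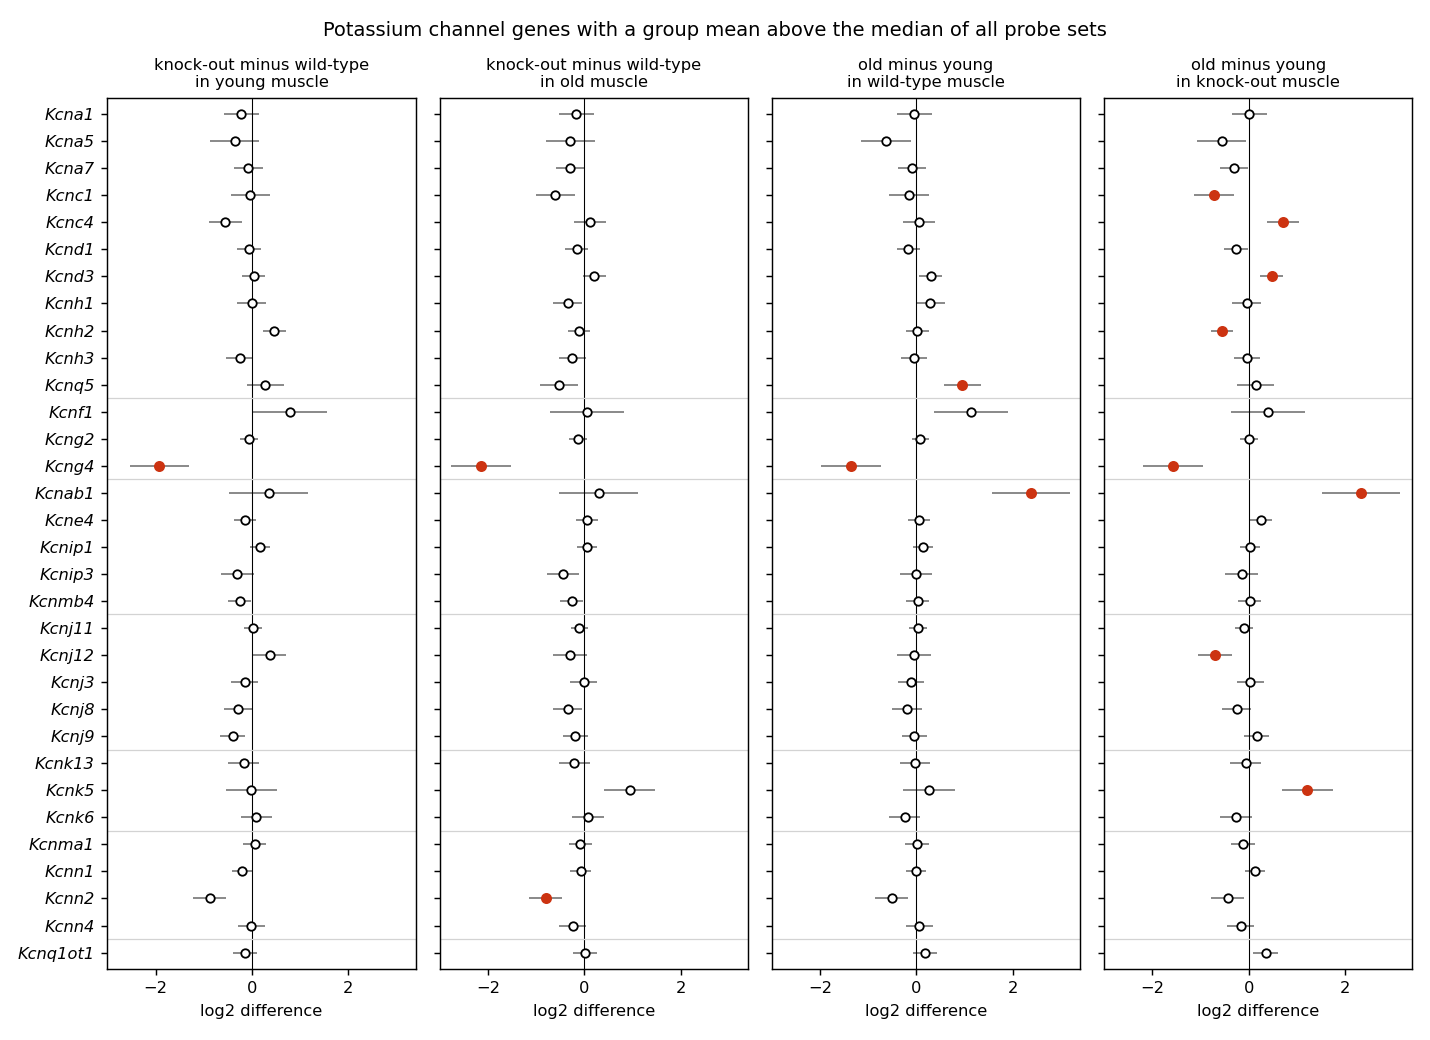
Log2 difference (x axis) with its 95% interval for the 32 genes with a group mean above the median of all probe sets (y axis, grouped by role from voltage-gated alpha subunits at the top to the non-coding RNA at the bottom) in the 4 comparisons; filled points passed the adjusted p of 0.05. Most points lie within 1 of 0, and Kcng4 and Kcnab1 stand apart.

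Of the inward rectifiers, Kcnj12, a strong rectifier near the resting potential, read 9.59, 9.34 and 9.48 in WT_young, 9.66, 9.84 and 10.01 in KO_young, 9.31, 9.37 and 9.60 in WT_old and 8.85, 9.02 and 9.54 in KO_old. The KO_young arrays were above all others, and KO_old 3 lay with the wild-type arrays. The adipocyte markers ran the other way in KO_old, at 11.2, 10.6 and 8.48, and their part in the Kcnj12 values was not tested. It fell by 0.70 ± 0.16 between young and old knock-out muscle (1.63-fold lower, limma adjusted p = 0.0181). The Kcnj12 call ended without KO_young 2 or 3 (0.0571 and 0.0789) or KO_old 1 or 2 (0.0605 and 0.0525) and with only the knock-out arrays (0.0804), over a range of 0.00224 to 0.0804. Knock-out minus wild-type was 0.37 ± 0.16 in young muscle (adjusted p = 0.420), and the genotype effects were -0.66 ± 0.23 apart (unadjusted p = 0.0138, adjusted p = 0.871).

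The pore subunits of ATP-closed channels showed no call. Kcnj11, the pore of the fibre's own ATP-closed channel, stayed between 9.38 and 9.66, with every 95% interval of a difference within -0.28 and 0.21. Kcnj8, the pore of the vessel form, lay between 8.31 and 9.10 and was -0.34 ± 0.14 in the old genotype comparison (adjusted p = 0.214). Kcnj9, a G protein-gated rectifier, was -0.39 ± 0.12 in young knock-out against young wild-type muscle (adjusted p = 0.251). Kcnj2, a known rectifier of muscle fibres, had group means of 4.02 to 4.26 on its 1 probe set, under the median signal.

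Among tandem-pore channels, which carry background current, Kcnk5 was the 1 member that passed. It read 5.24, 5.36 and 5.50 in WT_young, 5.23, 5.39 and 5.45 in KO_young, 5.44, 5.96 and 5.50 in WT_old and 7.30, 6.14 and 6.29 in KO_old. The KO_old arrays were above all others, with KO_old 1 the highest. Old minus young in knock-out muscle was 1.22 ± 0.25 (at least 2.33-fold higher, limma adjusted p = 0.00973), and 0.86 without KO_old 1 (adjusted p = 0.00811). This call was kept without any single array. Knock-out minus wild-type in old muscle was 0.94 ± 0.25 without passing (adjusted p = 0.0825), and the genotype effects were 0.95 ± 0.35 apart (unadjusted p = 0.0179, adjusted p = 0.871). The other, dimmer probe set gave -0.15, and averaging the probe sets ended the call (0.54, adjusted p = 0.0561), as did a fit on the knock-out arrays alone (0.0582), over a range of 0.00711 to 0.0582. Macrophage markers (6 of 7 above the median signal, Itgam under it) had their highest list means in KO_old. Their list means were 7.40 to 7.70 in WT_young, 7.46 to 8.10 in KO_young and 7.38 to 8.07 in WT_old. In KO_old 1, 2 and 3 these means were 8.31, 8.42 and 8.57, lowest on the array where Kcnk5 was highest. The markers did not move alike there. Cd68 read 10.2, 8.67 and 9.05, highest where Kcnk5 was highest, and Cd163 read 8.75, 8.93 and 8.32. Adgre1, Csf1r, Itgam, Lyz2 and Mrc1 were lowest on KO_old 1. Adipocyte markers (5 of 5 above the median signal) were at 11.2, 10.6 and 8.48 in KO_old and between 8.34 and 9.82 elsewhere. The part of either cell type in the Kcnk5 values was not tested.

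The 3 non-coding RNAs share loci with channel genes. Kcnq1ot1, the antisense RNA of the Kcnq1 locus, had group means of 8.67 in WT_young, 8.52 in KO_young, 8.85 in WT_old and 8.88 in KO_old and was 0.35 higher in old than in young knock-out muscle without passing (limma adjusted p = 0.0755). Kcnmb4os1 and Kcnmb4os2, opposite-strand RNAs at Kcnmb4, lay between 3.95 and 4.80, under the median signal.

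More members were lower than higher in knock-out muscle, though few passed the test. The difference was below 0 for 60 of 84 members (71.4%) in young and for 60 in old muscle, with medians of -0.10 and -0.12, beside 52.1% and 53.9% of all genes and medians of -0.01 and -0.02. Dim genes as a whole leaned the same way: of the 6432 genes with no group mean above the median signal, 69.2% and 69.5% were below 0. Of the 52 dim members 38 and 37 were below 0. Of the 32 others 22 and 23 were (68.8% and 71.9%), beside 42.7% and 45.3% of the 11762 other genes. With arrays centred on their median 55 and 56 members were below 0 (65.5% and 66.7%), beside 63.4% and 61.7% of dim genes and 47.0% and 47.4% of all genes. With quantile normalization again 57 and 54 members were (67.9% and 64.3%), beside 57.4% and 57.5% of dim genes and 53.7% and 54.7% of all genes. Of the 32 brighter members 59.4% and 68.8% were below 0 after centring, beside 38.1% and 39.6% of the 11762 brighter genes. After quantile normalization these shares were 68.8% and 71.9%, beside 51.6% and 53.2%. Groups did not overlap for 14 members in young muscle, 2 higher and 12 lower in knock-out (16.7%, background 20.8%, 10.7% higher and 10.1% lower). In old muscle this held for 19 members, 1 higher and 18 lower (22.6%, background 23.8%, 10.6% higher and 13.2% lower). With age it held for 16 members in wild-type muscle, 10 higher and 6 lower (19.0%, background 26.2%, 12.8% higher and 13.5% lower), and for 23 in knock-out muscle, 13 higher and 10 lower (27.4%, background 28.7%, 13.8% higher and 14.9% lower).

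**Figure D4:**
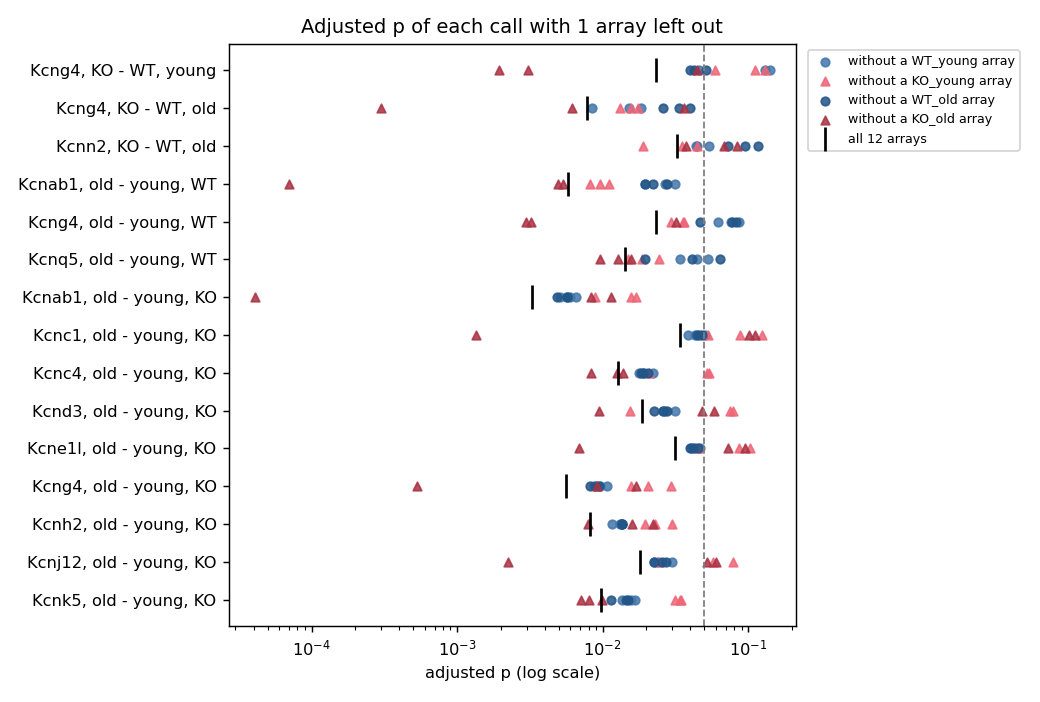
Adjusted p (x axis, log scale) of each of the 15 calls (y axis, gene and comparison) with 1 of the 12 arrays left out, coloured by the group of the array left out; the black bar is the value with all 12 arrays and the dashed line is 0.05. The Kcnab1 calls, the Kcng4 calls that include KO_old, and the Kcnh2 and Kcnk5 calls stay left of the line.

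Other genes of fibre excitability, 19 of 25 listed and measured, gave 0 to 3 calls a comparison, shares of the list that are given beside those of all genes. None passed between genotypes in young muscle (background 0.192%), where Scn3b, a sodium channel beta subunit gene, was at 0.94 ± 0.18 (limma adjusted p = 0.0593) and Abcc9, the sulphonylurea receptor gene that partners Kcnj8 and Kcnj11, at 0.18 ± 0.08 (adjusted p = 0.414). In old muscle Scn3b rose (1.09 ± 0.18, adjusted p = 0.0139) and 18 did not pass (5.26%, background 1.32%). With age 2 passed in wild-type muscle (10.5%, background 3.62%) and 3 in knock-out muscle (15.8%, background 10.3%). Cacng1, a gene of the calcium channel complex, rose with age in both genotypes, by 0.55 ± 0.10 in the wild-type and by 0.59 ± 0.10 in the knock-out (limma adjusted p = 0.0113 and 0.00392). Stac3, whose product is needed for excitation-contraction coupling, fell by 0.83 ± 0.19 and 0.76 ± 0.19. Atp1b2, a subunit gene of the sodium-potassium pump, fell by 0.81 ± 0.19 in knock-out muscle. List medians were 0.11, -0.07, 0.00 and -0.16 in the 4 comparisons, in the order given above.

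Of 17 measured genes of the acetylcholine receptor and the response to denervation, 8 rose and 0 fell with age in wild-type muscle (median 0.60, background 1.65% higher) and 7 rose and 0 fell in knock-out muscle (median 0.53, background 4.85% higher). Chrna1, the receptor's alpha subunit gene, rose by 1.10 ± 0.09 and 0.78 ± 0.09 (limma adjusted p = 0.000122 and 0.000625), and Ankrd1 rose by 2.43 ± 0.18 and 2.84 ± 0.18. Not all of the list moved up: 15 differences were above 0 and 2 below in wild-type muscle, and 13 and 4 in knock-out muscle. Ncam1 was at -0.18 and -0.20, Runx1 at -0.06 and -0.24, and Myod1 at 0.40 and -0.58, none passing. Kcnab1 was higher on the same old arrays, which holds for any gene that rises with age, and a link between Kcnab1 and this list was not tested. Between genotypes 0 passed in young muscle (background 0.192%) and 1 in old muscle (5.88%, background 1.32%), Ankrd1 (0.92 ± 0.18, limma adjusted p = 0.0362). Of 12 fast fibre genes 0 passed in any of the 4 comparisons (background 0.192%, 1.32%, 3.62% and 10.3%), with medians from -0.05 to 0.00. Most of these sat near the top value on the arrays, 15.95 (the means of Tnnc2 in the 4 groups were 15.79 to 15.82), where a change may not be measurable, and Casq1, at 14.31 to 15.00, was -0.70 ± 0.21 with age in knock-out muscle (adjusted p = 0.0540). Of 10 slow fibre genes, 3 rose with age in knock-out muscle (30%, background 10.3%, 4.85% higher): Csrp3 by 1.75 ± 0.21, Casq2 by 0.66 ± 0.14 and Myoz2 by 0.35 ± 0.10. With age in wild-type muscle 0 passed (background 3.62%). Myoz2 rose in old knock-out against old wild-type muscle (0.47 ± 0.10, adjusted p = 0.0458), 1 of 10 (10%, background 1.32%).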

How the data were processed

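Per the labels' protocols, Affymetrix mouse arrays were hybridised with biotin-labelled cRNA from Trizol-extracted total RNA. The authors deposited log2 probe set signals, for which the submitters' processing notes name RMA and affy; the version is not given in the sources used here. They were used as deposited, and no detection call was used.

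Of 45101 probe sets, 34958 named 1 gene. Each of the 18194 genes was tested on its probe set with the highest mean. The 12 arrays were fitted with 4 group means (limma 3.58.1, R 4.3.3; 8 residual and 4.15 prior degrees of freedom), with Benjamini-Hochberg adjustment over all genes. Values after ± are limma standard errors, and 3 arrays per group limit their precision. The replicate numbers follow accession order and pair nothing. The procedure was tested on simulated data.

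A fold reads "at least" where 1 of the 2 group means is under 6.22 and is left out where both are. Named were members past the threshold, per comparison the 8 smallest p-values among members with a higher mean above 6.22, textbook channels of muscle and its vessels, and from each other list the genes past the threshold or the 2 smallest p-values. Of these, a few from the lists are given by count. Members, lists and tests were chosen with earlier results of these data known, and the promoter motifs after the values were seen. All 84 members matched RefSeq gene IDs. Alternatives were other probe set rules, brighter genes, centring, quantile normalization, other variance models, array weights, fewer groups, an adjusted p of 0.10 and leaving out arrays.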

Additional observations from a re-analysis of the deposited data

How the results depend on the processing

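Members past the threshold were counted again under each alternative. The count of 1 for genotype in young muscle became 5 with array weights, 3 without KO_old 1 and WT_young 1 together (a choice made after seeing the data), and 2 with probe sets averaged per gene, brighter genes only, quantile normalization again, trended and robust variances, or an adjusted p of 0.10. It ranged from 0 to 4 with single arrays left out. Over all genes 35 passed as reported, 1019 with array weights and 216 without those 2 arrays together. In the settings that gave 2 members, 51 to 119 genes passed, where brighter genes only tested 11762 genes. With single arrays left out 1 to 173 genes passed. The count of 2 for genotype in old muscle became 0 with only the groups compared, 1 with array weights, 1 without those 2 arrays together and 4 at an adjusted p of 0.10, and ranged from 1 to 3 with single arrays left out. Over all genes 241 passed as reported, 0 with only the groups compared and 221 with array weights. Without those 2 arrays together 176 genes passed, at an adjusted p of 0.10 800, and with single arrays left out 28 to 644. The count of 3 for age in wild-type muscle became 7 with array weights and ranged from 1 to 4 with single arrays left out. Over all genes 659 passed as reported, 2451 with array weights and 208 to 1093 with single arrays left out. The count of 9 for age in knock-out muscle became 2 with only the groups compared and ranged from 4 to 11 with single arrays left out. Over all genes 1868 passed as reported, 617 with only the groups compared and 833 to 1998 with single arrays left out. The count of 0 for the interaction stayed at 0, while 0 to 37 of all genes passed. The count of members above the median signal ranged from 31 to 33 with single arrays left out. No difference followed through the settings changed sign. Those followed were the calls and, per comparison, the smallest p-values among members with a higher mean above 6.22. The other named differences were not followed, among them Kcnq5 with age in knock-out muscle, Kcna7, Kcnma1 and the genes of the other lists. Whether their signs hold was not tested. No paired analysis was possible because the labels carry no replicate numbers. Signal near background limits what can be seen in the 52 dim members.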
